A study of Drosophila melanogaster with 6 samples.

Results

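The 7 genes described here encode lipases of Drosophila melanogaster: mag, Lip1, Lip2, Lip3, Lip4, CG31089 and CG31091. They were taken by gene symbol from the platform annotation of the array. Each gene is measured by 1 probe set, so that 7 of 18952 probe sets, or 7 of 11983 gene rows, belong to them. The set was chosen by gene family with the mutant minus control log2 differences of these arrays already known, so that this difference is described for its members and tests nothing. RNA came from whole male larvae of the third instar, with 3 arrays for each of 2 genotypes. The mutants have the genotype yw/Yy+;msl21/msl21 and the controls yw/Yy+;msl21/+, so that both carry yw on the X, a Y with y+ and at least 1 copy of the EMS-induced allele msl21. Each array was hybridised with a separate RNA preparation from a pool of at least 50 larvae, and the labels state that pools were larger where larvae were smaller. MSL2 belongs to the complex that raises the expression of the single X of males, and the study asked whether genes outside the X also depend on it. All 7 lipase genes are autosomal.

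Lipases of this kind split dietary or stored triglycerides into fatty acids. In the fly, mag (magro) encodes a gastric lipase homologue that is secreted into the gut and acts on dietary triglycerides, and it also acts on cholesterol esters. Its expression depends on the nuclear receptor Hr96. Lip3 is known as a gene induced by starvation in larvae, and Lip4 as a target of the transcription factor foxo. Lip1, Lip2, CG31089 and CG31091 are members of the same family, and no more specific role is stated for them here. In RNA from whole larvae, fewer cells of a type and less RNA per cell cannot be told apart.

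The values are log2 expression values after RMA, 1 unit being a factor of 2. Array medians lay between 5.88 and 6.06. The mutant arrays varied more among themselves than the control arrays, with a median SD over all gene rows of 0.284 against 0.148. Mutant replicate 1 had low values of salivary glue genes such as Sgs1, at 4.44 against 8.01 to 10.57 on the other arrays, and of the late larval fat body gene Fbp1, at 5.27 against 12.04 to 13.47. Mutant replicate 2 had the smallest excess of 3' over 5' signal, a sign of RNA quality taken from 5 pairs of control probe sets, at 1.33. Mutant replicate 1 had the largest, 2.19, and the other arrays lay between 1.80 and 1.95. These values alone do not mark mutant replicate 2 as an array of poor quality. The part of larval age and of RNA quality in the lipase values was not tested.

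CG31089 had the widest separation of the 7 genes. In the order of replicates 1, 2 and 3, its log2 values were 7.26, 6.40 and 6.52 for the mutants and 4.60, 4.87 and 4.40 for the controls, and this order holds for all values below. All mutant values were above all control values, with a gap of 1.53 between the nearest arrays. The mutants averaged 6.73 ± 0.46 and the controls 4.62 ± 0.24 (SD, n = 3 each), a difference of 2.10 (SE 0.26) or 4.30-fold. Only 0.259% of all gene rows had a larger difference in this direction. The control mean lies below 5.43, the upper limit of the dimmest 25% of gene rows, where RMA compresses differences, so the fold is approximate. The annotated span of CG31089 also overlaps the antisense gene asRNA:CR43259, which has no gene row here.

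CG31091, the gene next to CG31089 on 3R, had a smaller difference and hardly separated groups. Its values were 7.38, 6.23 and 6.53 in the mutants and 5.69, 6.19 and 5.73 in the controls. The gap between mutant replicate 2 and control replicate 2 was only 0.04, and mutant replicate 1 stood highest. The controls averaged 5.87 ± 0.28 and the mutants 6.71 ± 0.60 (SD, n = 3 each), a difference of 0.84 (SE 0.32). Without mutant replicate 1 it was 0.51, and without mutant replicate 2 it was 1.08. Both genes had their highest value in mutant replicate 1, the array with low glue values.

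**Figure D1:**
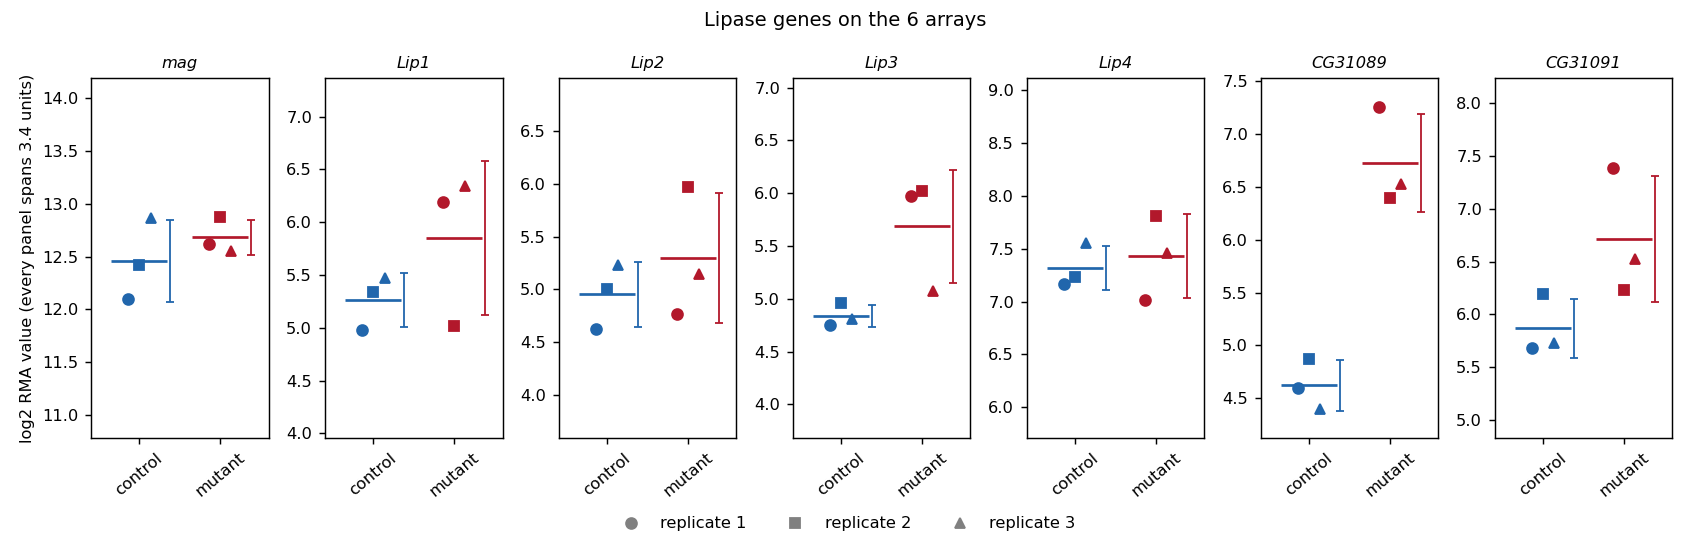
Log2 RMA values of the 7 lipase genes, 1 panel per gene with axes of equal span, for the 3 control arrays (blue) and the 3 mutant arrays (red); horizontal lines are group means and bars 1 SD, and symbols give the replicate number. CG31089 shows the widest gap between the groups (1.53), while the values of mag, Lip1, Lip2 and Lip4 overlap.

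Lip3, the starvation-induced lipase, had high values on mutant replicates 1 and 2 only. Its values were 5.97, 6.02 and 5.07 in the mutants and 4.75, 4.96 and 4.81 in the controls. Mutant replicate 3 exceeded the highest control by 0.11, which is less than the range of 0.21 among the controls. The means were 5.69 ± 0.53 and 4.84 ± 0.11 (SD, n = 3 each), a difference of 0.85 (SE 0.27). With limma's array weights, which rest mainly on mutant replicate 3 among the mutants, the difference was 0.34. Without mutant replicate 3 it was 1.16. Lip3 is among the dimmest 25% of gene rows, so the size is approximate.

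Lip1 had the opposite exception. Its values were 6.19, 5.01 and 6.35 in the mutants and 4.98, 5.34 and 5.47 in the controls. Mutant replicates 1 and 3 were above all controls, and mutant replicate 2 lay within their range. The controls averaged 5.26 ± 0.26 and the mutants 5.85 ± 0.73 (SD, n = 3 each), a difference of 0.59 (SE 0.36). Without mutant replicate 2 it was 1.01, a factor of 2.01, and without mutant replicate 3 it was 0.34. The control mean lies below 5.43, the upper limit of the dimmest 25% of gene rows, so these sizes are approximate.

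Lip2, which follows Lip1 directly on 2L, was high on the array where Lip1 was low. Its values were 4.77, 5.97 and 5.15 in the mutants and 4.62, 5.01 and 5.23 in the controls. Only mutant replicate 2 stood above the controls. The difference of 0.34 (SE 0.33) became 0.01 without that array and 0.61 without mutant replicate 1. Mutant replicate 2 differed from the mean of the other mutants by 1.01 for Lip2 and by -1.26 for Lip1. Lip2 is also among the dimmest 25% of gene rows.

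For mag and Lip4 the groups overlapped and the differences were close to or below their standard errors. The gastric lipase gene mag had values of 12.62, 12.87 and 12.56 in the mutants and 12.10, 12.42 and 12.87 in the controls. Its 6 values spanned only 0.77, and mutant replicate 2 and control replicate 3 were nearly equally high. The difference was 0.22 (SE 0.22), and it was 0.04 without control replicate 1 and 0.43 without control replicate 3, the lowest and the highest control. The foxo target Lip4 had values of 7.02, 7.81 and 7.46 in the mutants and 7.16, 7.23 and 7.56 in the controls, and the mutants held both its lowest and its highest value. The difference was 0.11 (SE 0.23), and without mutant replicate 2 it turned to -0.08, and without mutant replicate 1 it was 0.32.

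Read over the 7 genes, all differences were above 0, with a median of 0.59, against 50.6% of all gene rows above 0 and a median of 0.00. In 3 of the 7 genes (CG31089, CG31091 and Lip3) all mutant values exceeded all control values, as in 6.59% of all gene rows. In limma's test over the 11983 gene rows, 0 of the 7 lipase genes passed an adjusted p of 0.05, beside 0.0167% of all gene rows in either direction and 0% higher. At an unadjusted p of 0.05 it would be 3 of the 7 (CG31089, Lip3 and CG31091), beside 3.86% of all gene rows that were higher. Without mutant replicate 2 CG31089 and Lip1 passed, beside 2.80% of all gene rows that were higher in that fit. Both had their lowest mutant value on that array. With any other single array left out 0 of the 7 passed. Since the genes were proposed from this contrast, nothing is read from these shares or calls.

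**Figure D2:**
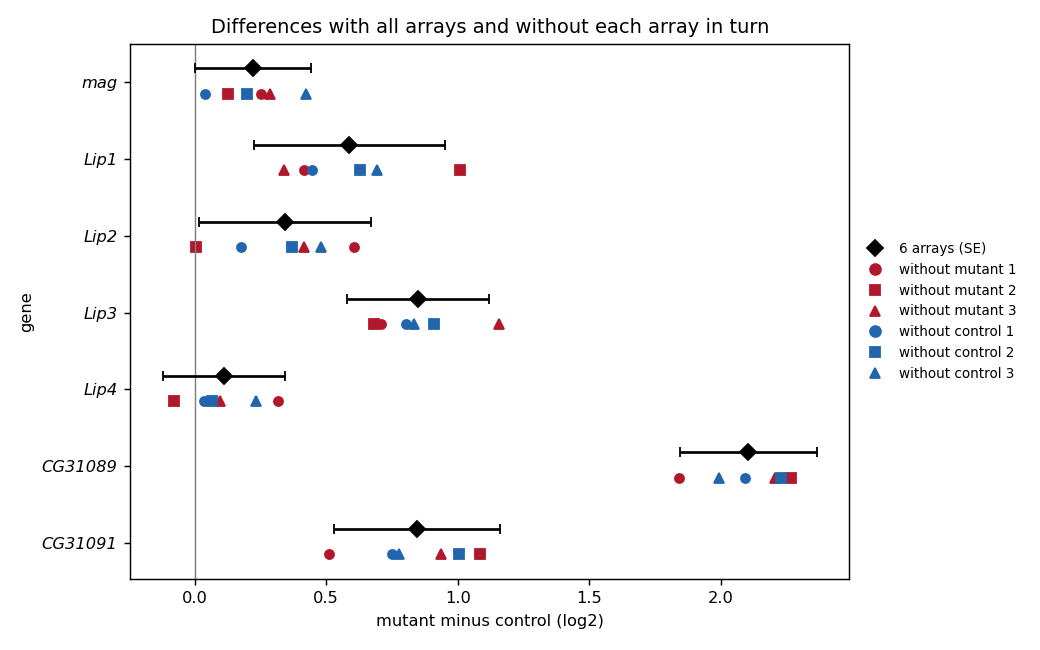
Mutant minus control difference (log2) of each lipase gene, from all 6 arrays (black diamonds, bars 1 SE) and with 1 array left out in turn (red for a mutant array, blue for a control array). CG31089 stays between 1.84 and 2.27, while Lip2 moves from 0.01 to 0.61 and Lip4 from -0.08 to 0.32.

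The 7 genes did not share 1 profile over the arrays. Profiles were centred on each gene's mean and compared by their root mean square difference over the 6 arrays. The most alike pairs were Lip2 with Lip4 (0.21 log2 units), mag with Lip4 (0.21) and mag with Lip2 (0.29). These 3 genes had their highest mutant value in mutant replicate 2. The least alike pair was Lip4 with CG31089 (1.14). The neighbours CG31089 and CG31091 differed by 0.64 and the neighbours Lip1 and Lip2 by 0.77, so that neither pair was among the most alike. Among the 7, CG31091 was still the closest to CG31089, followed by Lip3 (0.72). The measure also depends on how much a gene varies, and mag and Lip4 spanned only 0.77 and 0.79.

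The closest profiles to CG31089 among 3205 other gene rows with a range of at least 1 log2 unit were those of Cht4, a chitinase gene, and Mal-A7, a maltase gene. Cht4 differed from CG31089 by 0.16, with values of 10.36, 9.35 and 9.96 in the mutants and 7.58, 7.97 and 7.61 in the controls. Mal-A7 differed by 0.30, with values of 7.51, 5.68 and 6.22 in the mutants and 4.24, 4.77 and 4.35 in the controls. Both, like CG31089, had their highest value in mutant replicate 1 and their lowest mutant value in mutant replicate 2.

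The closest profiles to Lip2 were those of Lsd-1, a perilipin gene of lipid droplets, and cathD, a lysosomal protease gene. They differed from it by 0.08 and 0.09. Lsd-1 had values of 10.38, 11.57 and 10.69 in the mutants and 10.27, 10.63 and 11.05 in the controls. In cathD the values were 11.88, 12.94 and 12.26 against 11.86, 12.11 and 12.47. In both genes mutant replicate 2 was the highest of all arrays.

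The other profiles had neighbours of less clear role. Those nearest to Lip1 were CG3650 and CG7080 (both 0.08), with mutant replicate 2 at 5.43 and 5.54 and the other mutants between 6.55 and 6.86. Nearest to Lip3 were Pde11, a phosphodiesterase gene, and CG12054 (both 0.16), in which mutant replicate 3 was the lowest mutant, at 5.20 and 7.16. Nearest to CG31091 were CG1273 (0.13) and CG13325 (0.15), in which mutant replicate 1 was the highest array, at 6.26 and 7.01. For mag and Lip4, whose values span less than 1 log2 unit, no nearest profile is given.

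**Figure D3:**
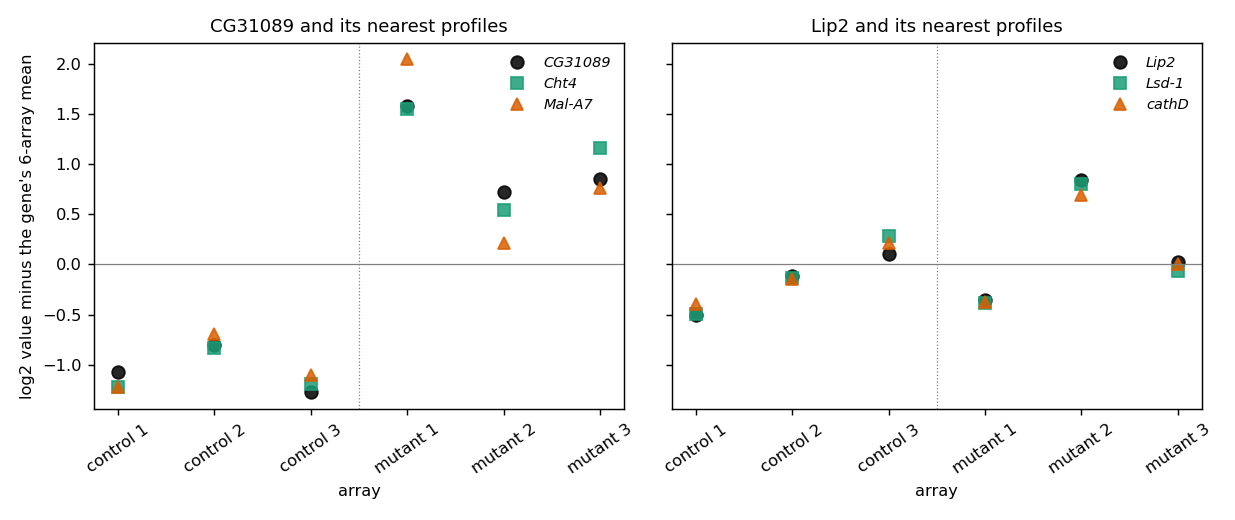
Centred log2 values (value minus the gene's mean over 6 arrays) of CG31089 with Cht4 and Mal-A7 (left) and of Lip2 with Lsd-1 and cathD (right), for each array; the dotted line parts controls from mutants. The genes on the left separate the groups, while those on the right stand highest in mutant replicate 2.

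In chromosome order the lipase genes lie at 5 places, with 2 adjacent pairs. Beside CG31091 lies Mco3, a multicopper oxidase gene, with values of 5.42, 4.55 and 5.26 in the mutants and 4.12, 4.53 and 4.41 in the controls. Its difference was 0.72 (SE 0.25), and its groups were just separate, at 4.55 in mutant replicate 2 and 4.53 in control replicate 2. Mco3 is among the dimmest 25% of gene rows, so the size is approximate. On the other side of CG31089, kumpel had a difference of -0.02 (SE 0.20). CG6415, which lies within the annotated span of Lip2, was highest in mutant replicate 2 (8.60) like Lip2, and between 7.62 and 8.17 on the other arrays. The span of mag lies within that of atk, whose difference was 0.13 (SE 0.16), and Lip3 overlaps CheA87a, at 0.01 (SE 0.19). Like Mco3, both atk and CheA87a are among the dimmest 25% of gene rows. Of 37 measured protein-coding neighbours within 4 places of a lipase gene, 4 (Mco3, CG7294, CG7300 and Trim9) had all mutant values above all controls, as in 6.59% of all gene rows, and 0 had them all below, as in 7.29%. Their median difference was -0.04.

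**Figure D4:**
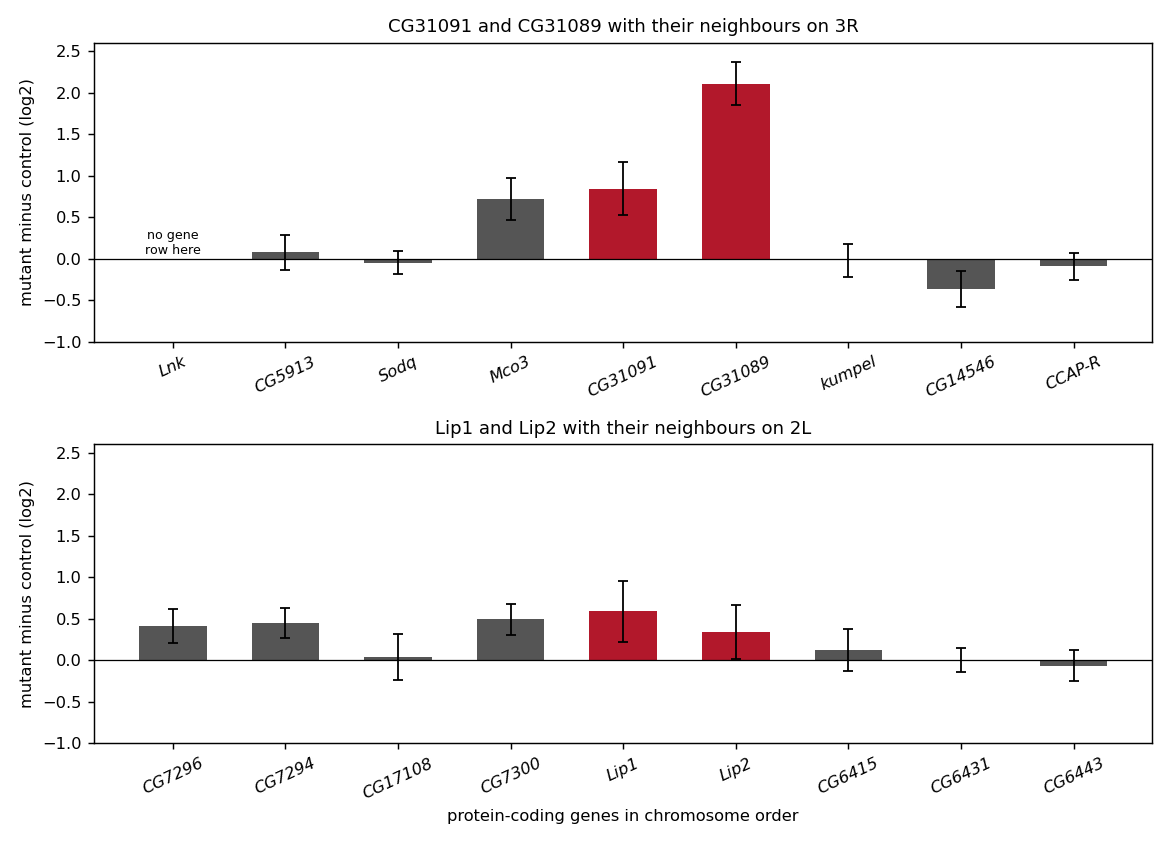
Mutant minus control difference (log2, bars from 0, error bars 1 SE) of the lipase pairs (red) and of their measured protein-coding neighbours (grey), in chromosome order without distances. CG31089 stands at 2.10, its neighbours CG31091 and Mco3 at 0.84 and 0.72, and kumpel on the other side at -0.02.

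Other acid lipase genes, of the same family as the 7, showed no common direction. Of 16 measured genes, 0 passed limma's test (adjusted p of 0.05 over all gene rows; 1 higher at an unadjusted p of 0.05, beside 3.86% of all gene rows), 10 were above 0 and 6 below, and the median was 0.01. Of the 16, 11 are among the dimmest 25% of gene rows, where a difference would be compressed. CG3635 had values of 6.93, 6.27 and 6.42 in the mutants and 5.46, 5.92 and 5.99 in the controls. All its mutant values were above all controls, as in 6.59% of all gene rows (difference 0.75, SE 0.23, limma adjusted p = 0.491). CG7329 differed by -0.41 (SE 0.18) and CG6753 by 0.25 (SE 0.19), both with overlapping groups. CG18301 and CG18302, which follow Lip4 on 2L, had differences of 0.01 each and are dim.

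Neutral lipase genes, of the pancreatic lipase type, included several with separated groups. Of 26 measured genes 19 were above 0, beside 50.6% of all gene rows, with a median of 0.14. In limma's test 0 passed in either direction (5 higher at an unadjusted p of 0.05, beside 3.86% of all gene rows). In those 5, which are CG17191, CG6295, CG6271, CG6283 and CG13562, the groups did not overlap and the mutants were higher, as in 6.59% of all gene rows. CG17191 had values of 7.03, 7.84 and 7.05 in the mutants and 5.91, 6.33 and 6.39 in the controls. Its difference was 1.10 (SE 0.26, limma adjusted p = 0.351). CG6295 had 10.85, 10.81 and 10.67 against 8.95, 9.77 and 10.11 (difference 1.17, SE 0.29, limma adjusted p = 0.369). In CG6271 the difference was 0.47 (SE 0.13, limma adjusted p = 0.448).

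All but CG13562, which lies on 2R, belong to a row of 7 lipase genes in direct succession on 3R. CG6283, named here after its values were seen, had the largest difference of the row, 1.30 (SE 0.39), with mutant values of 10.15, 11.61 and 10.76 and control values of 9.45, 9.19 and 9.99. Between them CG17192 differed by -0.03 (SE 0.15), and at the end of the row CG6296 differed by 0.25 (SE 0.22), with overlapping groups. CG6277 has no gene row here. Unlike CG31089, both CG6283 and CG17191 had their highest value in mutant replicate 2. Without that array 3 of the 26 neutral lipase genes passed the test as higher, beside 2.80% of all gene rows, and 1 as lower, beside 7.91%. The higher ones were CG17191 (difference 0.83, limma adjusted p = 0.0372), CG5665 (limma adjusted p = 0.0338) and CG13562 (limma adjusted p = 0.0441), and the lower one was CG6675 (difference -0.91, limma adjusted p = 0.0443). CG5665 and CG6675 are named after their values were seen.

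**Figure D5:**
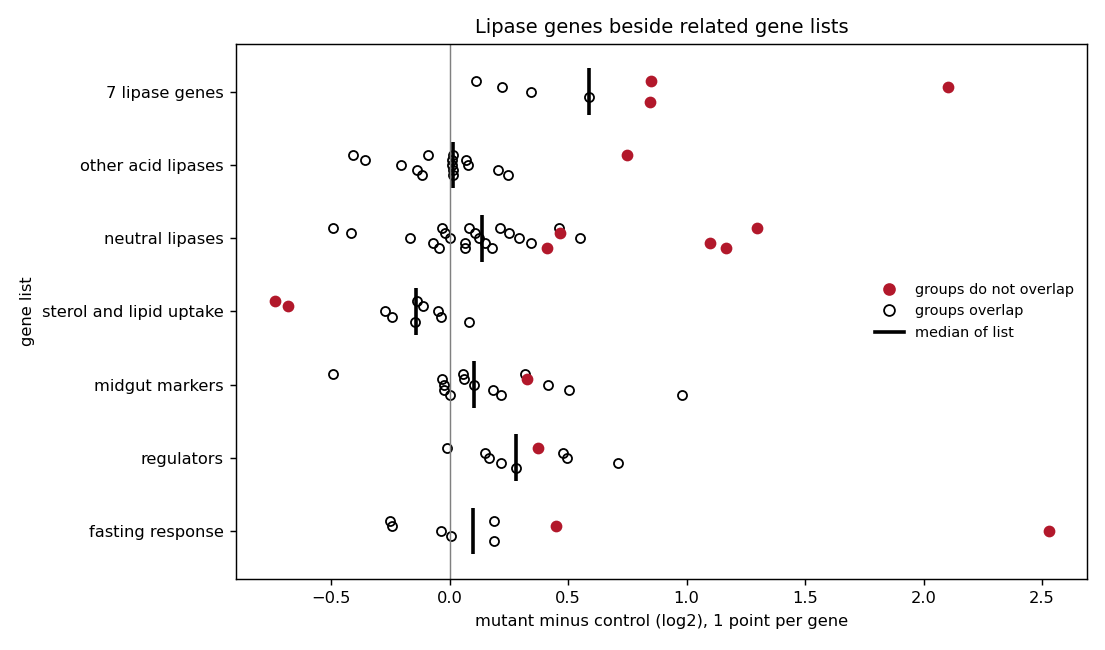
Mutant minus control difference (log2) of every measured gene, 1 point per gene, in the 7 lipase genes and in 6 related gene lists; filled points are genes whose groups do not overlap, and thick lines are list medians. The medians are 0.59 for the 7 genes, 0.01 for other acid lipases, 0.14 for neutral lipases and -0.14 for sterol and lipid uptake.

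Genes for the uptake of sterols and lipids in the gut had mostly small differences below 0. Of 10 measured genes 9 were below 0 (median -0.14) and 1 above, beside 50.6% of all gene rows above 0. In limma's test 0 passed (2 lower at an unadjusted p of 0.05, beside 4.66% of all gene rows). Only Npc2e and Npc2f, of a family of sterol-binding proteins, had all mutant values below all controls, as in 7.29% of all gene rows. The other genes of the list had overlapping groups. Npc2e was at 8.56, 8.73 and 8.39 in the mutants and 9.11, 9.38 and 9.24 in the controls. Its difference was -0.68 (SE 0.15, limma adjusted p = 0.334). Npc2f differed by -0.74 (SE 0.21, limma adjusted p = 0.445) and Npc2g, with overlap, by -0.24 (SE 0.24). Without mutant replicate 2 Npc2e and Npc2f passed, with limma adjusted p of 0.0295 and 0.0448, in a fit that called 7.91% of all gene rows lower.

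Regulators of lipase genes showed small differences. Of 9 measured genes, 8 were above 0 (median 0.28), beside 50.6% of all gene rows. In limma's test 0 passed, also at an unadjusted p of 0.05. The largest difference was that of foxo, at 0.71 (SE 0.31). Its mutant values of 5.17, 5.86 and 4.76 overlap the controls at 4.92, 4.38 and 4.36. The difference was 0.41 without mutant replicate 2, 0.96 without mutant replicate 3 and 0.37 with array weights. Since foxo is among the dimmest 25% of gene rows, the size is approximate. The nuclear receptor gene svp differed by 0.48 (SE 0.22) in its brightest probe set and by 0.24 (SE 0.14) in the mean of its probe sets. Mondo, a sugar-sensing transcription factor gene, differed by 0.37 (SE 0.19), with all mutant values above all controls, as in 6.59% of all gene rows. Its difference was 0.20 without mutant replicate 1 and 0.51 without mutant replicate 3. Hr96, the regulator of mag, differed by 0.17, and Hnf4, another nuclear receptor gene, by 0.28.

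Of 8 measured genes that respond to fasting, 0 passed limma's test (2 higher at an unadjusted p of 0.05, beside 3.86% of all gene rows), and the median was 0.10. The list carries no direction of response for its genes, so its median and counts do not measure a fasting response. The alpha-glucosidase gene tobi had the largest difference, 2.53 (SE 0.33), with values of 7.93, 6.61 and 7.13 in the mutants and 4.93, 4.66 and 4.50 in the controls. Like CG31089 it was highest in mutant replicate 1 and lowest among the mutants in mutant replicate 2. Without mutant replicate 2 it passed the test (limma adjusted p = 0.0085), as did 2.80% of all gene rows in this direction. The control mean of tobi, 4.70, lies below 5.43, the upper limit of the dimmest 25% of gene rows, so the size is approximate. The insulin receptor gene InR differed by 0.45 (SE 0.15), with all mutant values above all controls, as in 6.59% of all gene rows. InR is among the dimmest 25% of gene rows, so its size is approximate too. AkhR, the receptor gene of the fasting hormone, differed by 0.19 (SE 0.17). The triglyceride lipase gene bmm, which acts on stored fat, differed by -0.24 (SE 0.23).

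Midgut markers were measured for 15 of 20 listed genes and were all outside the dimmest 25%. Averaged over the genes, mutant replicates 1, 2 and 3 had log2 levels of 12.17, 11.61 and 11.81 and the controls 11.50, 11.80 and 11.76, so that the groups overlapped and mutant replicate 1 stood highest. Of the 15 genes, 11 were above 0 (median 0.10), beside 50.6% of all gene rows. In limma's test 0 passed (3 higher at an unadjusted p of 0.05, beside 3.86% of all gene rows). The trypsin gene alphaTry differed by 0.98 (SE 0.38), and the protease genes Jon25Bii and Jon25Bi by 0.50 (SE 0.21) and 0.41 (SE 0.17), each with overlap. These have the smallest p of the list. On the other side of 0 were 4 of the 15, with Vha100-4 at -0.49 (SE 0.31). The markers mex1 and LManV differed by 0.06 and -0.03. Without mutant replicate 2 Jon25Bii and Jon25Bi passed, with limma adjusted p of 0.0405 and 0.0476, beside 2.80% of all gene rows. The part of gut content in the lipase values was not tested.

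The fat body genes Fbp1, Lsp2 and Fbp2 (3 of 6 measured) had a mean log2 level of 9.13 in mutant replicate 1, 13.71 in mutant replicate 2 and 12.98 in mutant replicate 3, against 12.42 to 13.15 in the controls. Mutant replicate 2, the highest of these, is also the array where Lip2, Lip3, Lip4 and mag had their highest mutant value. In 44.7% of all gene rows the highest mutant value fell on that array. The 10 salivary gland markers had a mean of 7.85 in mutant replicate 1 and between 11.95 and 12.58 on the other arrays. All 10 had a mean difference below 0, and 0 passed limma's test (2 lower at an unadjusted p of 0.05, beside 4.66% of all gene rows). In the Sgs genes and Eig71Ee this sign rests on mutant replicate 1, the lowest array for each. Eig71Ee, for instance, had 5.57, 13.49 and 12.23 in the mutants and 10.42, 11.24 and 11.59 in the controls. Averaged over the 10 genes, mutant replicates 2 and 3 had 12.58 and 12.23, against 11.95 to 12.39 in the controls. In ng3 and ng1, which are X-linked, all mutant values were below all controls, as in 7.29% of all gene rows. The values of ng3 were 12.18, 12.07 and 12.00 in the mutants and 12.67, 12.50 and 12.37 in the controls, and ng1 had 11.59, 10.79 and 11.35 against 11.98, 11.72 and 11.72. The part of these tissues in the lipase values was not tested.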

How the data were processed

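RNA of 6 pools of male larvae was measured on 1-colour Affymetrix Drosophila Genome 2.0 arrays. The deposited values are log2 expression values that the authors made with RMA, per the labels; scanner software was GCOS 1.4, per the submitters' processing notes. No RMA program or genome build is stated in the sources used here. RMA makes array distributions alike. The number of arrays limits the precision. Groups and replicate numbers come from the titles, which call the heterozygotes wt.

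Of 18952 probe sets, 183 are controls and 13647 have 1 gene symbol in the platform annotation; 402 have several and 4720 are unnamed here. A RefSeq gene table (Release 6 plus ISO1 MT) held 13544 of the 13647 and supplied symbols and gene order. For genes with several probe sets the one with the highest mean was used, giving 11983 gene rows. limma 3.58.1 (R 4.3.3; lmFit, eBayes, two-sided, Benjamini-Hochberg over all gene rows) compared the groups, and was tested on simulated data. Figures used Python 3.11.15 and matplotlib 3.10.9.

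Members and lists were chosen with earlier results of these data known. Named genes are the 7 members, the 2 nearest profiles of members spanning at least 1 log2 unit, up to 3 genes of each list by smallest p, and genes named for position, regulatory role or as further examples of a list. Sequences were not analysed here.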

Additional observations from a re-analysis of the deposited data

How the results depend on the processing

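With all 6 arrays limma called 0 gene rows higher and 2 lower (463 and 558 at an unadjusted p of 0.05). The counts higher and lower were 441 and 1012 with array weights, 131 and 139 with the RNA quality measure (3' minus 5' signal) as covariate, and 3 and 3 over all non-control probe sets. Lower counts were 0 for the brighter 50% of gene rows and 1 with an intensity trend and robust fit. Leaving out 1 array gave 0 to 335 higher and 0 to 948 lower, the highest counts without mutant replicate 2. Of the 7 lipase genes 2 passed as higher with array weights, beside 441 of 11983 gene rows. With the covariate 1 passed as higher, beside 131. With 1 array left out 0 to 2 passed, beside 0 to 335 gene rows higher. With array weights mutant replicates 1, 2 and 3 had weights of 0.415, 0.175 and 3.15.

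CG31089 kept a difference between 1.84 and 2.27 over 13 alternatives and passed in 3 of them. These were array weights, the covariate and leaving out mutant replicate 2. Those fits called 441, 131 and 335 of 11983 gene rows higher. Lip1 lay between 0.34 and 1.01 and passed in 2 of 13. It passed with array weights and without mutant replicate 2, beside 441 and 335 of 11983 gene rows. Lip3 lay between 0.34 and 1.16 and passed in none of 13. The Sgs genes and Eig71Ee were not followed over the alternatives. With 1 array left out, signs turned for Lip4 (-0.079 to 0.32), Npc2g (-0.37 to 0.0015), Lsd-1 (-0.11 to 0.48), cathD (-0.079 to 0.45), Fbp1 (-3.33 to 0.77), Lsp2 (-0.85 to 0.44) and Fbp2 (-0.76 to 0.72). With array weights they turned for AkhR (-0.012), Lsp2 (0.033) and Fbp2 (0.15). The causes were not tested. With the replicate number as a block 0 gene rows and 0 lipase genes passed. Deviations of same-numbered arrays from their group means had correlations of 0.19, -0.27 and 0.11 for numbers 1, 2 and 3. With 3 arrays per group these cannot show whether the numbers pair the samples. Signal over background is not known, and differences among dim probe sets are compressed.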

Other observations

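Control replicate 1 had the lowest control value in 6 of the 7 lipase genes (all but CG31089), as in 31.0% of all gene rows. The highest of the 3 mutant values fell in mutant replicate 2 for 4 genes (mag, Lip2, Lip3 and Lip4), in mutant replicate 1 for CG31089 and CG31091, and in mutant replicate 3 for Lip1. Over all gene rows the shares were 44.7%, 37.5% and 17.8%. The SD was larger in the mutants than in the controls for 6 of the 7 genes (all but mag), beside 81.3% of all gene rows.

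Near Lip1, and chosen after their values were seen, CG7300 and CG7294 had separate groups without being lipase genes. CG7300 was at 7.74, 7.36 and 7.79 in the mutants and 7.31, 7.23 and 6.87 in the controls, a difference of 0.49 (SE 0.19, limma adjusted p = 0.557). CG7294 differed by 0.45 (SE 0.18, limma adjusted p = 0.575).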
